A study of Homo sapiens with 22 samples.

Results

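The adrenergic core transcription factors examined here are PHOX2A, HAND1, HAND2, GATA2, GATA3, ISL1, TBX2 and TFAP2B, 8 genes out of 35237 in the deposited count table. They were chosen by symbol as core factors of the adrenergic state of neuroblastoma, with earlier results of these data known, and all 8 were present. Their RNA was followed through 22 libraries. The cells were SK-N-AS or GIMEN, established lines from human neuroblastomas, and the labels class both as mesenchymal. Untreated SK-N-AS cells were kept in DMEM with 10% fetal bovine serum (n = 4). The S1D4 group was SK-N-AS exposed for 4 days to 5 µM PP121, an inhibitor of tyrosine kinases and phosphoinositide kinases, with serum at 1% (n = 4). S1D4 cells then received 5 µM PP121 together with 100 nM bufalin, a cardiac glycoside, in Neurobasal medium with B27 and no serum, for 4 days (S2D4, n = 4) or for 30 days (S2D30, n = 4). GIMEN cells were kept untreated in RPMI with 10% serum (n = 3) or were given 2.5 µM PP121 with 10 nM bufalin in RPMI with 1% serum for 30 days (GIMEN D30, n = 3). Serum was lower than in the untreated cells in every treated group, and in S2D4 and S2D30 the medium changed as well, so the parts of serum, medium and compounds in a difference cannot be told apart.

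Neuroblastoma arises from the sympathoadrenal branch of the neural crest. In adrenergic tumour cells a small set of transcription factors is thought to bind the enhancers of one another and of noradrenergic genes, so that the set sustains its own transcription. Mesenchymal cells rely on other factors, such as PRRX1, and more closely resemble migrating neural crest cells. PHOX2A is a homeodomain protein needed for noradrenergic identity, HAND1 and HAND2 are basic helix-loop-helix proteins, and GATA2 and GATA3 are zinc finger proteins of sympathetic neuron differentiation. ISL1 is a LIM homeodomain protein of sympathetic and sensory neurons, TBX2 is a T-box protein that mostly represses transcription, and TFAP2B is an AP-2 protein of the neural crest and sympathetic lineage.

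Total counts were between 16456484 and 37506800 per library. Levels below are CPM, counts relative to the scaled library size, with 1 scaling for all 22 libraries, and changes are log2 fold changes with their standard error (SE) from edgeR's quasi-likelihood test, called at an adjusted p under 0.05. The labels do not say whether the libraries of a group came from separate cultures, so p-values measure only the spread between these libraries, which may be technical. In bulk RNA, fewer cells that express a gene and less RNA per cell cannot be told apart. The library S2D4 replicate 4 stood apart from the other 3 of its group: its correlation with them was 0.967 to 0.968 over 16610 genes, against at least 0.990 among the others. Results that rest on it are given with and without it. Schwann and glial marker genes summed to between 2.1 and 9.88 CPM in every library, and SOX10 averaged at most 0.183 CPM in any group. Of the leukocyte markers, CD3E and MS4A1 had no count in any SK-N-AS library, whereas PTPRC, which encodes CD45, averaged 176.7 CPM in untreated SK-N-AS. It averaged 57.1 CPM in S1D4, 23.7 CPM in S2D4 and 0.85 CPM in S2D30. The summed leukocyte markers ranged from 160 to 208 CPM in untreated SK-N-AS and from 69.2 to 75.5 CPM in S2D30. The sum in S2D30 was mostly LCP1, an actin-bundling protein, which averaged 0.534 CPM in untreated SK-N-AS and 67.5 CPM in S2D30 (log2 change 6.83, edgeR adjusted p = 3.38e-09). Whether these markers had a part in the results below was not tested.

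Start sites of 7 of the 8 genes were matched by symbol to RefSeq promoters (GRCh38.p14), and 5 of the 7 had a single start. The 250 bases upstream of 4 of those are printed here because they hold letters that proteins of the same families bind. Their fall did not select them, since all 8 genes were called lower than in untreated cells in S2D4 and S2D30. Capitals mark matches on either strand to the letters that proteins of each family are known for. For GATA proteins these were AGATAA and also, as an alternative first base, TGATAA. For homeodomain proteins the letters were TAATTA, for AP-2 proteins they were GCCNNNGGC, and for T-box proteins they were AGGTGT. An E-box of HAND proteins, spelled CATCTG, was searched as well and was found in none of the 13 start windows of the 7 genes. The HAND2 window, chr4:173530230-173530479 on the minus strand, held a GATA match starting at -222, counted from the start site. It also held a homeodomain match at -175 that overlapped a further GATA match at -172. The ISL1 window, chr5:51383198-51383447 on the plus strand, held GATA matches at -156 and -31. The PHOX2A window, chr11:72244177-72244426 on the minus strand, held 1 T-box match at -166, and the HAND1 window, chr5:154478228-154478477 on the minus strand, held 1 AP-2 match at -72.
HAND2: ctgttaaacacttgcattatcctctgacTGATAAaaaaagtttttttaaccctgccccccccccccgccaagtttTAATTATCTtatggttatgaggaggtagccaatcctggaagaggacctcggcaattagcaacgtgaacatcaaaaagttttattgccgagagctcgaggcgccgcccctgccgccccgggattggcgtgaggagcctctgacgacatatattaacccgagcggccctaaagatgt
ISL1: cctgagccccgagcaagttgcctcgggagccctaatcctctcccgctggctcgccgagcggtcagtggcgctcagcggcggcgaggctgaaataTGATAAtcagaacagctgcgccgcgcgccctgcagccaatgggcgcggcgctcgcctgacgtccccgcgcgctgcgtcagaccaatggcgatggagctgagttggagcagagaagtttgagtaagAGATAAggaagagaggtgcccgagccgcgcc
PHOX2A: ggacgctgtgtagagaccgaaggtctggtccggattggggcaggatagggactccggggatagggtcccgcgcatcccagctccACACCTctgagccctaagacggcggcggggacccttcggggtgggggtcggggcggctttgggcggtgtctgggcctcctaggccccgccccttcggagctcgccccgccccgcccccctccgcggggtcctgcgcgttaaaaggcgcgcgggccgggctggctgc
HAND1: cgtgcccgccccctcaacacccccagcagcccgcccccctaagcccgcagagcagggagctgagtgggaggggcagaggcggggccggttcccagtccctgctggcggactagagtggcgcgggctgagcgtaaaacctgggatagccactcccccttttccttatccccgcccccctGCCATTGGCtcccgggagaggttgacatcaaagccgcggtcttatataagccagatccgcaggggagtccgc

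Of 35116 RefSeq promoter windows of the same length, 14.6% held the GATA letters, 4.35% a homeodomain match, 19.8% an AP-2 match, 9.57% a T-box match and 12.2% the HAND E-box. In the 7 matched genes the GATA letters were in 2 of 13 windows, those of HAND2 and ISL1. AP-2 letters were in 6 of 13, namely both GATA2 windows, 3 of the 6 GATA3 windows and that of HAND1. The single TFAP2B window, chr6:50818621-50818870 on the plus strand, held none of the 5 motifs, which says only that those letters are not in it. A match of letters describes the sequence and is not evidence of binding.

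In untreated cells the lines held different parts of the set. PHOX2A, HAND1 and TFAP2B were present in SK-N-AS and at the detection floor in GIMEN, where no library had more than 3 counts. ISL1, GATA2, GATA3 and HAND2 were higher in SK-N-AS, and TBX2 alone of the 8 was higher in GIMEN. All 8 genes differed between the untreated lines, 7 of them higher in SK-N-AS, where 73.9% of all genes tested were called in either direction and 38.6% as higher in SK-N-AS. Over the 5 genes that were not at the floor in either line the median log2 difference was 1.11, and over all genes it was 0.05. Upper-quartile scaling raised the median of all genes in this comparison by 0.15, and every one of the 8 directions was the same under it.

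PHOX2A stood at 173.6, 163.6, 142.4 and 106.1 CPM in the 4 untreated SK-N-AS libraries and had no count in the 3 untreated GIMEN libraries. With 3 counts per library as the floor, it was at least 932-fold higher in SK-N-AS. On the same footing HAND1, at 24.9, 20.02, 30.97 and 27.1 CPM in SK-N-AS, was at least 164-fold higher, and again GIMEN had no count. TFAP2B, at 38.2, 41.3, 29.8 and 35.8 CPM, was at least 231-fold higher than in GIMEN, where 1 count was found in the 3 libraries together. These genes separated the lines as presence against absence at this depth.

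ISL1 stood at 40.6, 40.9, 48.8 and 48.5 CPM in untreated SK-N-AS and at 1.03, 0.688 and 1.98 CPM in untreated GIMEN. Its difference was 5.18 on the log2 scale (SE 0.251, edgeR adjusted p = 7.53e-12), with no overlap. GATA2 (74.7, 79.9, 116 and 112 CPM against 40.3, 42.3 and 40.1) and GATA3 (123.9, 124.3, 146 and 131.2 CPM against 63.5, 57.1 and 60.1) differed by less. Their log2 differences were 1.21 for GATA2 and 1.11 for GATA3 (edgeR adjusted p = 1.06e-06 and 3.25e-09). HAND2 was abundant in both lines, at 584.9, 551.3, 597.3 and 577.6 CPM in SK-N-AS and 369.2, 351.1 and 368.2 CPM in GIMEN, and differed by 0.65 (SE 0.0973, edgeR adjusted p = 1.16e-05). TBX2 ran the other way, at 431.6, 514.2, 468.3 and 441.4 CPM in SK-N-AS and 662.8, 666.3 and 635.4 CPM in GIMEN, a log2 difference of -0.51 (SE 0.108, edgeR adjusted p = 4e-04). In a model of all 22 libraries the TBX2 difference had an adjusted p of 0.0798. Among the mesenchymal regulators, PRRX1, a homeodomain factor of the mesenchymal state, averaged 25.2 CPM in untreated SK-N-AS and 179.7 CPM in untreated GIMEN. The 16 mesenchymal regulators listed summed to 251 to 299 CPM in untreated SK-N-AS and to 1310 to 1350 CPM in untreated GIMEN, although the labels class both lines as mesenchymal. The 8 adrenergic factors summed to 1480 to 1580 CPM in SK-N-AS and to 1110 to 1140 CPM in GIMEN, mostly TBX2 and HAND2 in the latter.

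Per kilobase of exon, HAND2 was the most abundant of the 8 in untreated SK-N-AS, at 160 CPM per kilobase, ahead of PHOX2A at 82.1 and TBX2 at 76.9. GATA3 followed at 38.2, GATA2 at 21.5, ISL1 at 15.5, HAND1 at 14.8 and TFAP2B at 5.9 CPM per kilobase. In untreated GIMEN the order began with TBX2 at 109 and HAND2 at 101 CPM per kilobase. GATA3 came next at 17.5 and GATA2 at 9.17, with ISL1 at 0.427. Exon lengths are those of GENCODE 29, which may not be the authors' annotation. In that annotation 24.1% of HAND2 exon bases, on chromosome 4, also lie in exons of HAND2-AS1 on the opposite strand. Whether counting used strand is not given in the sources used here, so HAND2 counts could include reads of that antisense transcript, which was not analysed here. For PHOX2A on chromosome 11 the overlapped share was 1.63%, for TBX2 on chromosome 17 it was 0.464%, and for the other 5 genes it was 0. None of the 8 shared a word of 75 bases with another gene.

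**Figure D1:**
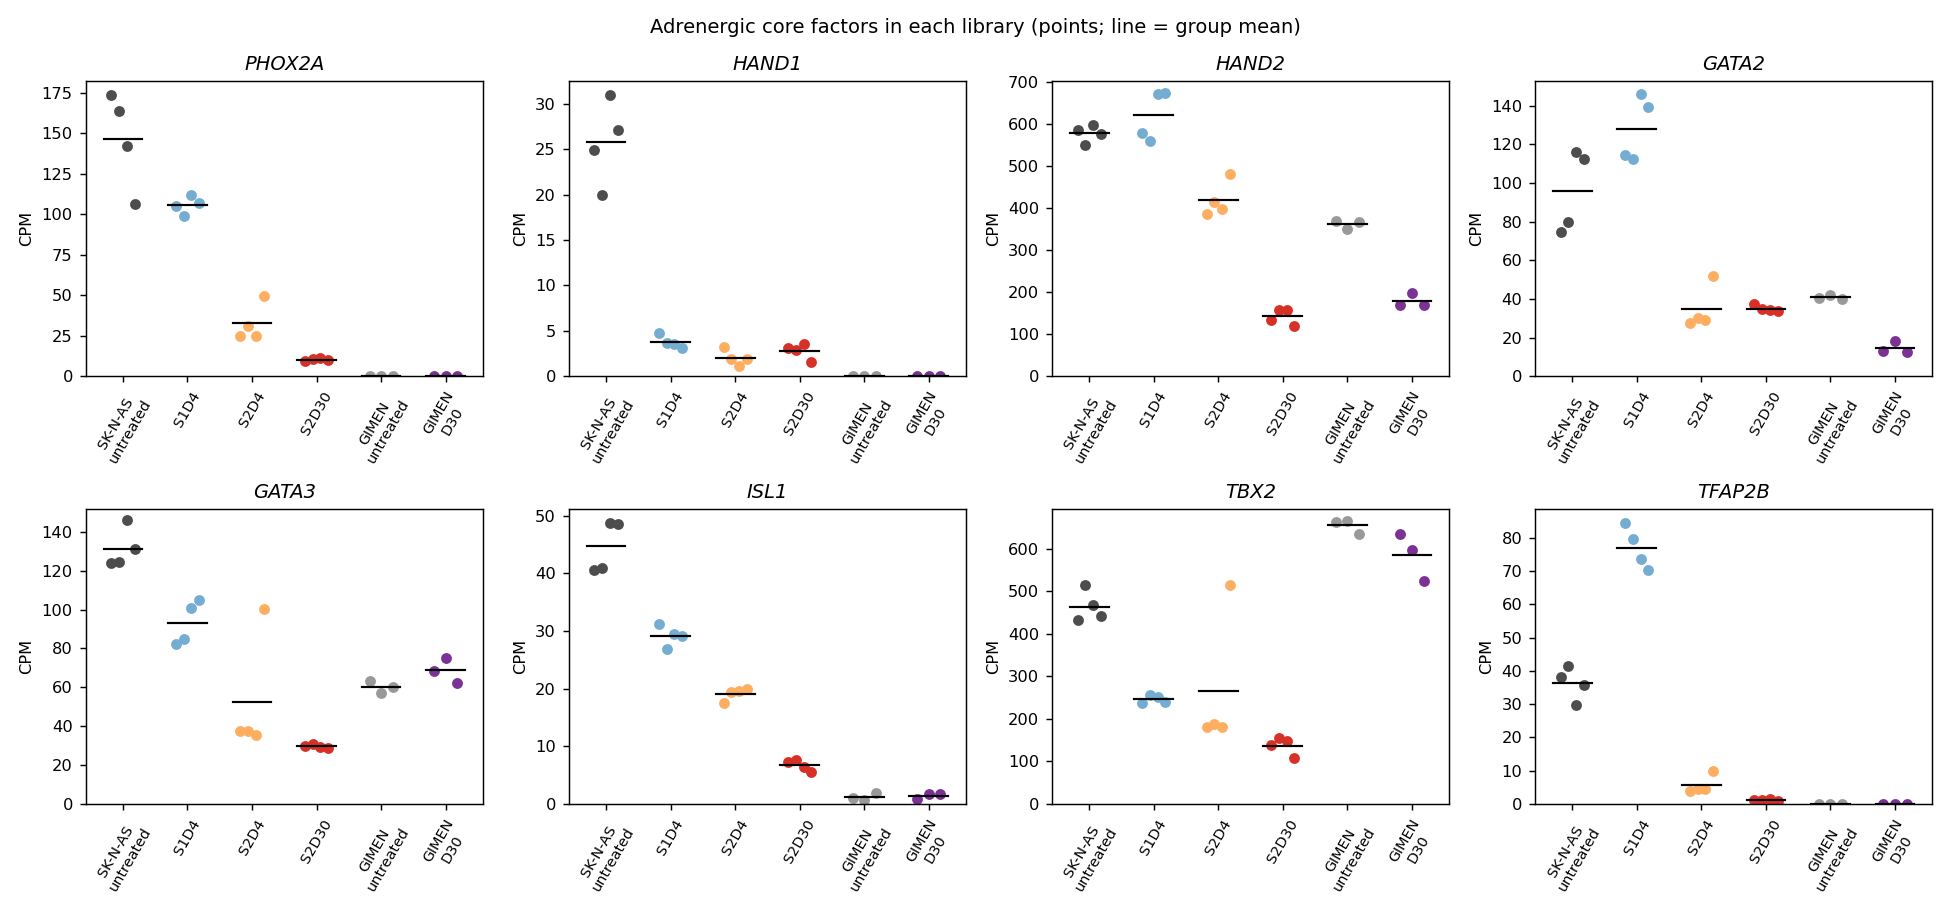
CPM of each of the 8 genes (vertical axes, linear, each from 0) in every library (points) of the 6 groups (horizontal axis), with a line at each group mean. PHOX2A, HAND1 and TFAP2B lie at 0 or next to 0 in all 6 GIMEN libraries, and S2D4 replicate 4 lies far above the other S2D4 libraries for TBX2 (516 CPM) and GATA3 (100 CPM).

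The first 4 days, PP121 alone in low serum, lowered some of the set and raised 1 gene. HAND1 fell 6.87-fold, TBX2 fell 1.92-fold, ISL1 fell 1.56-fold and PHOX2A fell 1.41-fold, whereas TFAP2B rose 2.08-fold. HAND2, GATA2 and GATA3 did not pass the test. In all, 5 of 8 were called, against 40.1% of all genes tested. The 4 lower calls compare with 22.4% of all genes and the single higher call with 17.6%. The median log2 change was -0.51, against -0.01 over all genes. The groups did not overlap for 5 of 8. The share of all genes without overlap was not computed, here or below, so whether such a count is unusual was not tested.

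HAND1, which with HAND2 belongs to the Twist-related basic helix-loop-helix proteins, stood at 4.82, 3.67, 3.59 and 3.15 CPM in S1D4. All 4 lay far below the lowest untreated library (20.02 CPM), and the log2 change was -2.78 (SE 0.274, edgeR adjusted p = 1.36e-06). HAND2 did not pass the test, at 577.7, 560.0, 671.1 and 674.8 CPM, a change of 0.08 (SE 0.101, adjusted p = 0.578) with overlapping groups. ISL1 stood at 31.2, 26.8, 29.5 and 29.1 CPM, all below every untreated library, and changed by -0.64 (SE 0.101, edgeR adjusted p = 0.000109).

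TFAP2B stood at 84.5, 79.5, 73.6 and 70.2 CPM in S1D4, above all 4 untreated libraries, and rose by 1.06 on the log2 scale (SE 0.206, edgeR adjusted p = 0.000675). TBX2 fell by 0.94 on the same scale (SE 0.261, edgeR adjusted p = 0.00859), to 236.8, 255.9, 250.9 and 239.9 CPM, without overlap. PHOX2A stood at 104.9, 98.98, 111.9 and 107 CPM, which overlapped the lowest untreated library. Its log2 change of -0.50 (SE 0.186) had an edgeR adjusted p of 0.0423. The PHOX2A call was lost on leaving out any of 7 of the 8 libraries compared (all 4 S1D4 libraries and untreated replicates 1, 2 and 3), with changes from -0.38 to -0.53 and adjusted p from 0.0644 to 0.153. It was also lost with DESeq2's size factors (adjusted p = 0.0513) and without a filter on low counts (adjusted p = 0.0549).

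GATA2 and GATA3 had changes of opposite sign in S1D4, neither of which passed the test. GATA2 stood at 114.7, 112.4, 146.1 and 139.3 CPM, overlapping the untreated libraries, with a log2 change of 0.40 (SE 0.182, adjusted p = 0.0945). GATA3 stood at 82.1, 84.99, 101 and 104.7 CPM, below every untreated library, with a log2 change of -0.52 (SE 0.247, adjusted p = 0.107). The SK-N-AS groups share 1 estimate of the spread, and without S2D4 replicate 4 both genes were called, with adjusted p of 0.0153 for GATA2 and 7.13e-05 for GATA3. The count of called genes was then 7 of 8.

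After a further 4 days with bufalin in serum-free medium all 8 genes were lower than in untreated SK-N-AS. HAND1 fell 12.9-fold, TFAP2B 6.43-fold, PHOX2A 4.58-fold, GATA2 2.81-fold, GATA3 2.55-fold, ISL1 2.39-fold, TBX2 1.78-fold and HAND2 1.41-fold. All 8 were called lower, where 32.2% of all genes tested were called lower and 63.1% in either direction. The groups did not overlap for 7 of 8, TBX2 being the exception, again without a share of all genes to set beside it. The median log2 change was -1.42, against -0.02 over all genes. Without S2D4 replicate 4 all 8 remained called lower, with a median of -1.81. The folds above include that library. The mean CPM of the other S2D4 libraries was 0.118 of the untreated mean for TFAP2B and 0.185 for PHOX2A. It was 0.28 for GATA3 and 0.303 for GATA2, so the order of these GATA genes turned.

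TFAP2B, the gene that had risen in S1D4, stood at 3.87, 4.45, 4.52 and 9.92 CPM in S2D4. From S1D4 to S2D4 it fell 13.4-fold, a log2 change of -3.74 (SE 0.233, edgeR adjusted p = 2.36e-09), with no overlap. GATA2 stood at 27.8, 30.01, 29.1 and 52.1 CPM, down 3.7-fold from S1D4 (log2 change -1.89, SE 0.189, edgeR adjusted p = 4.51e-07). PHOX2A stood at 24.8, 31.2, 25.1 and 49.9 CPM, down 3.24-fold (log2 change -1.70, SE 0.193, edgeR adjusted p = 1.82e-06). In each of these 3 genes replicate 4 was the highest S2D4 library and still lay below every S1D4 library.

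HAND2 stood at 387.1, 415.6, 399.0 and 481 CPM in S2D4, all below the S1D4 and untreated libraries. Its log2 change was -0.57 against S1D4 (SE 0.101, edgeR adjusted p = 0.000165) and -0.49 against untreated cells (SE 0.101, edgeR adjusted p = 0.000453). ISL1 stood at 17.5, 19.4, 19.7 and 20 CPM, and its change from S1D4 was -0.62 (SE 0.103, edgeR adjusted p = 8.92e-05). HAND1 stood at 3.26, 1.9, 1.08 and 1.94 CPM, partly within the S1D4 range, and changed from S1D4 by -0.90 (SE 0.286, edgeR adjusted p = 0.0133).

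TBX2 and GATA3 were the genes in which replicate 4 differed most from its group. TBX2 stood at 182, 187.4 and 181.8 CPM in replicates 1 to 3 and at 516 CPM in replicate 4, above every untreated library. With all 4 libraries its log2 change was -0.83 against untreated cells (SE 0.261, edgeR adjusted p = 0.0104) and 0.11 against S1D4 (SE 0.259, adjusted p = 0.748). Without replicate 4 the changes were -1.37 (adjusted p = 7.31e-09) and -0.43 (adjusted p = 0.00183), so the direction against S1D4 turned. GATA3 stood at 37.6, 37.3 and 35.3 CPM in replicates 1 to 3 and at 100 CPM in replicate 4, inside the S1D4 range. Its log2 change from S1D4 was -0.83 with replicate 4 (SE 0.25, edgeR adjusted p = 0.00995) and -1.35 without it (adjusted p = 4.01e-09). From S1D4 to S2D4, 7 of 8 genes were called lower and none higher, against 26.8% and 28.3% of all genes (55.1% in either direction), and without replicate 4 the count was 8 of 8.

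**Figure D2:**
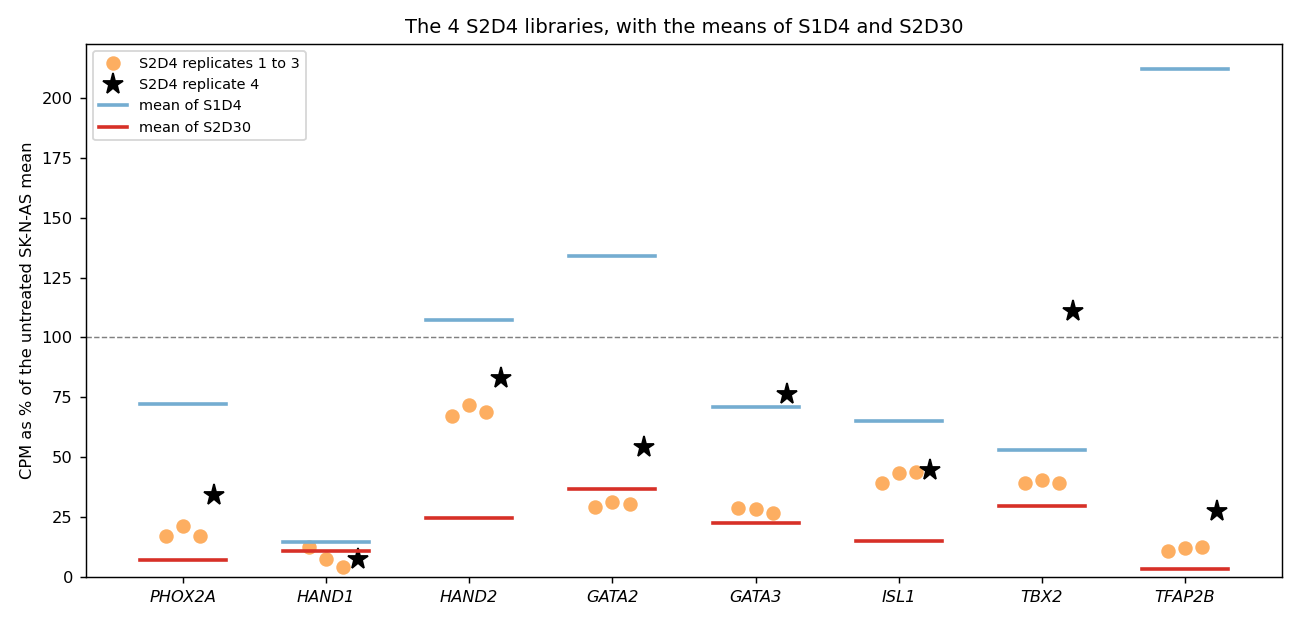
CPM of the 8 genes in the 4 S2D4 libraries (circles for replicates 1 to 3, star for replicate 4), as a percentage of the untreated SK-N-AS mean (vertical axis, linear), with lines at the S1D4 and S2D30 means. Replicate 4 exceeds the mean of the other 3 by 2.81-fold for TBX2, 2.73-fold for GATA3 and 2.32-fold for TFAP2B, and lies within their range for HAND1 and just above it for ISL1.

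Replicate 4 was not higher across the whole set. Its ratio to the mean of the other 3 libraries was 1.84 for PHOX2A, 1.8 for GATA2, 1.2 for HAND2, 1.06 for ISL1 and 0.935 for HAND1. Over 9730 genes with at least 10 CPM, 4.74% were more than 2-fold higher in this library and 3.16% more than 2-fold lower. DBH, which makes noradrenaline from dopamine, reached 29.98 CPM in this library against a group median of 3.43 CPM, and TH, the first enzyme of that pathway, 25.1 CPM against 0.958. The cause of the difference was not tested.

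By day 30 of the combined treatment the whole set was lower than in untreated SK-N-AS. In none of the 8 genes did the groups overlap, a count that again has no share of all genes beside it. TFAP2B fell 31.5-fold, PHOX2A 14.6-fold, HAND1 9.53-fold, ISL1 6.81-fold, GATA3 4.55-fold, HAND2 4.15-fold, TBX2 3.47-fold and GATA2 2.8-fold. All 8 were called lower, where 36.5% of all genes tested were called lower and 70.3% in either direction. The median log2 change was -2.48, against -0.03 over all genes. The summed level of the 8 genes fell from between 1480 and 1580 CPM in untreated libraries to between 309 and 402 CPM in S2D30. The S1D4, S2D4 and S2D30 comparisons share the 4 untreated libraries, so they are not independent of each other.

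PHOX2A stood at 9.35, 10.8, 11.1 and 9.99 CPM in S2D30, and its log2 change against untreated cells was -3.87 (SE 0.213, edgeR adjusted p = 9.15e-11). TFAP2B stood at 1.23, 1.07, 1.41 and 0.999 CPM, and its log2 change was -4.98 (SE 0.269, edgeR adjusted p = 7.44e-11). ISL1 stood at 7.28, 7.58, 6.43 and 5.6 CPM, and its log2 change was -2.77 (SE 0.11, edgeR adjusted p = 2.18e-12). Each of the 3 was also lower than at day 4 of the same treatment, with log2 changes of -1.67 for PHOX2A, -2.29 for TFAP2B and -1.51 for ISL1 (edgeR adjusted p = 3.49e-06, 3.13e-06 and 1.15e-08). With 1 of the compared libraries left out, these changes ranged from -1.79 to -1.40 for PHOX2A. The ranges were -2.44 to -1.86 for TFAP2B and -1.57 to -1.43 for ISL1. These 3 genes fell at both steps, and in no case did S2D4 and S2D30 libraries overlap.

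Most of the fall of HAND2 came between S2D4 and S2D30. It stood at 134.8, 158.9, 157.4 and 120.6 CPM in S2D30, a log2 change of -1.56 from S2D4 (SE 0.104, edgeR adjusted p = 4.88e-09) and -2.05 from untreated cells (SE 0.105, edgeR adjusted p = 3.82e-11). HAND1 had the opposite course, with most of its fall in the first 4 days. Its S2D30 libraries, at 3.12, 2.87, 3.58 and 1.52 CPM, overlapped those of S2D4 (log2 change 0.43, SE 0.292, adjusted p = 0.231). Among the alternatives tried, that difference was called only when S2D4 replicate 1 was left out (0.74, adjusted p = 0.0418).

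GATA2 also reached its low level by S2D4, with 37.2, 34.7, 34.3 and 33.7 CPM in S2D30. The change from S2D4 was 0.00 on the log2 scale (0.00422, SE 0.186, adjusted p = 0.987), and without replicate 4 of S2D4 it was 0.27 (adjusted p = 0.127). GATA3 stood at 29.6, 30.7, 29.2 and 28.9 CPM, a change from S2D4 of -0.84 (SE 0.253, edgeR adjusted p = 0.011) that was -0.32 (adjusted p = 0.0082) without replicate 4. TBX2 stood at 137.6, 155.7, 147.2 and 108 CPM, a change from S2D4 of -0.96 (SE 0.262, edgeR adjusted p = 0.00569) that was -0.43 (adjusted p = 0.00192) without replicate 4. From S2D4 to S2D30, 6 of 8 genes were called lower and none higher, against 26.9% and 24.4% of all genes tested (51.3% in either direction). Those 6 were also the genes whose groups did not overlap, and the share of all genes without overlap was not computed.

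**Figure D3:**
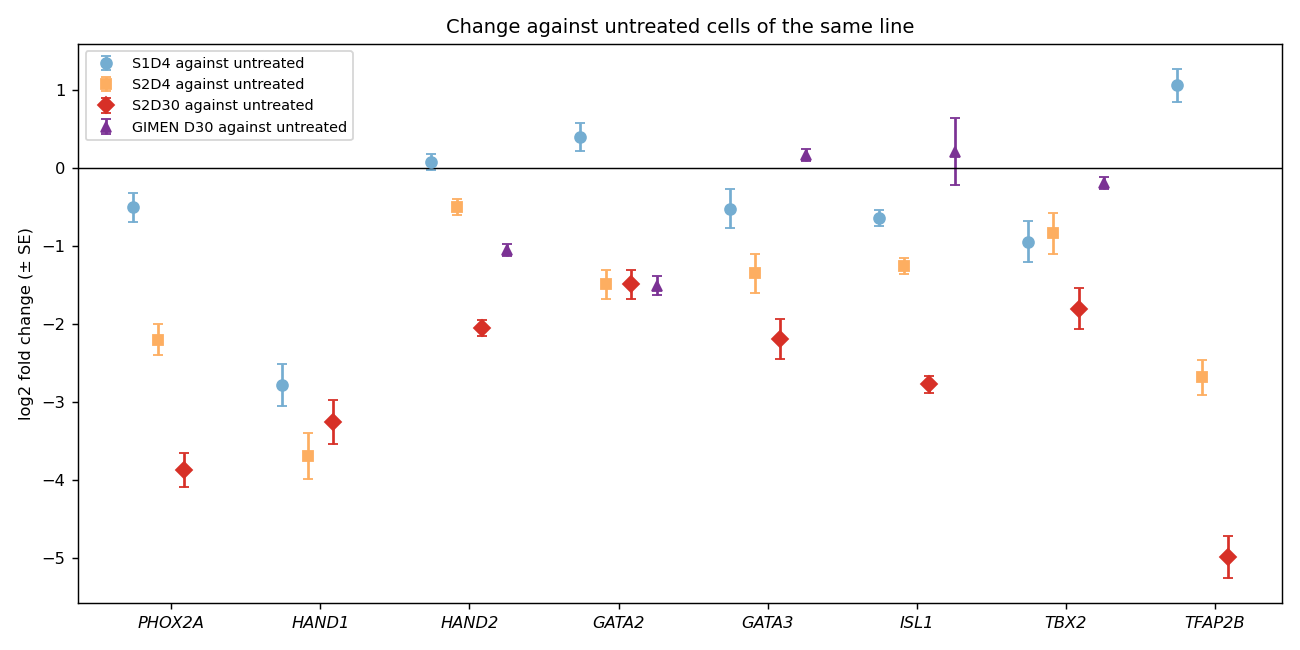
Log2 fold change (vertical axis) of each gene against untreated cells of the same line, with bars of 1 SE from the model, for S1D4, S2D4, S2D30 and GIMEN D30. All 8 genes lie below 0 at S2D4 and S2D30, from -0.49 to -4.98, while TFAP2B lies at 1.06 in S1D4, and the 3 genes at the floor in GIMEN have no GIMEN point.

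In GIMEN, 30 days at lower doses of both compounds moved fewer of the set. GATA2 fell 2.85-fold, HAND2 2.06-fold and TBX2 1.14-fold. GATA3 and ISL1 did not pass the test, and PHOX2A, HAND1 and TFAP2B stayed at the floor, with 1, 0 and 0 counts in the 3 treated libraries together, and were not tested. The 3 genes called lower were 3 of 5 tested, against 36% of all genes called lower and 71.4% called in either direction. The median log2 change of the 5 was -0.19, against 0.02 over all genes.

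HAND2 stood at 170.8, 198.1 and 168.6 CPM in GIMEN D30, below all 3 untreated libraries, and its log2 change was -1.05 (SE 0.0721, edgeR adjusted p = 1.6e-07). GATA2 stood at 12.9, 18.2 and 12.8 CPM, also without overlap, and changed by -1.51 (SE 0.121, edgeR adjusted p = 5.42e-07). TBX2 stood at 634, 596.7 and 525 CPM, just below the untreated range, with a change of -0.19 (SE 0.0738, edgeR adjusted p = 0.0376). The TBX2 call was lost with upper-quartile scaling (-0.14, adjusted p = 0.0983), in a model of all 22 libraries (adjusted p = 0.652) and on leaving out any library except GIMEN D30 replicate 1 (-0.12 to -0.21 without each of the others, adjusted p from 0.0516 to 0.112).

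GATA3 stood at 68.7, 75.3 and 62.1 CPM in GIMEN D30, overlapping the untreated libraries, with a log2 change of 0.16 (SE 0.0766, adjusted p = 0.0757). It was called higher with upper-quartile scaling (0.21, adjusted p = 0.0243) and without GIMEN D30 replicate 3 (0.23, adjusted p = 0.0108). ISL1 stood at 0.881, 1.71 and 1.73 CPM, near its untreated level, with a change of 0.21 (SE 0.428, adjusted p = 0.673). Neither gene passed the test as lower in GIMEN.

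An interaction test set the 30-day change in SK-N-AS against that in GIMEN for the 5 genes above the floor in GIMEN. The difference, SK-N-AS minus GIMEN on the log2 scale, was -1.02 for HAND2, -2.36 for GATA3, -3 for ISL1 and -1.62 for TBX2 (SE 0.137, 0.12, 0.386 and 0.155). Their edgeR adjusted p-values were 1.03e-05, 1.46e-10, 6.97e-06 and 2.58e-07. The difference for GATA2 was 0.01 (SE 0.204, adjusted p = 1), its log2 changes being -1.49 in SK-N-AS and -1.51 in GIMEN. These 4 of 5 calls compare with 25.2% of all genes called in that direction, 24.5% in the other and 49.7% in either. Doses, medium and the preceding 4 days with PP121 alone differed between the protocols, so line and protocol cannot be told apart.

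The order of the 6 groups differed by gene. PHOX2A and ISL1 ran from untreated SK-N-AS through S1D4, S2D4 and S2D30 to GIMEN, with overlap between untreated SK-N-AS and S1D4 for PHOX2A and between the GIMEN groups for both. TFAP2B had S1D4 at the top and otherwise the same order. For HAND2 the lowest group was S2D30, at 142.9 ± 18.6 CPM (SD, n = 4), below GIMEN D30 at 179.1 ± 16.4 CPM (SD, n = 3). For GATA3 S2D30 was also lowest, at 29.6 ± 0.787 CPM, and the S2D4 range overlapped that of untreated GIMEN only through S2D4 replicate 4, the other 3 libraries lying below it. TBX2 was highest in untreated GIMEN, at 654.8 ± 16.9 CPM, and lowest in S2D30, at 137.1 ± 20.8 CPM. GATA2 was lowest in GIMEN D30, at 14.6 ± 3.10 CPM, while S2D4 and S2D30 overlapped only through S2D4 replicate 4, the other 3 S2D4 libraries lying below S2D30.

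Among the 16 SK-N-AS libraries the genes varied together to different degrees. Pearson's r of log2 CPM was 0.957 between PHOX2A and ISL1, 0.957 between PHOX2A and TFAP2B, 0.95 between HAND2 and ISL1 and 0.953 between PHOX2A and GATA3. It was lowest for HAND1, at 0.442 with HAND2 and 0.511 with TFAP2B. These values describe 4 groups of libraries rather than 16 independent conditions, and the libraries share the scaling.

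Over all 22 libraries, the genes most like each member were found among 11626 genes with at least 10 CPM in a group mean. FBXL21 (r = 0.998) and COCH (0.996) were most like PHOX2A, and CELF3 (0.995) was most like TFAP2B. CELF3, which encodes a neuronal RNA-binding protein, averaged 75.8 CPM in untreated SK-N-AS and 165 CPM in S1D4, then 9.83 CPM in S2D4 and 0.841 CPM in S2D30, and was also first within the 16 SK-N-AS libraries (r = 0.993). RNF165 (0.991) was most like ISL1, PCOLCE (0.98) like HAND2, FXYD6 (0.976) like HAND1, BAALC (0.975) like GATA2, PCK2 (0.973) like GATA3 and PKP4 (0.954) like TBX2. The second gene of each pair was KIF21A for HAND1 (0.975), PRMT6 for HAND2 (0.978), CEND1 for GATA2 (0.961), NFYB for GATA3 (0.957), CACNG4 for ISL1 (0.987), CCND3 for TBX2 (0.948) and DENND1A for TFAP2B (0.989). Most of these genes ranked lower within the 16 SK-N-AS libraries, where COCH was 122nd for PHOX2A, CACNG4 148th for ISL1, CEND1 73rd for GATA2, CCND3 65th for TBX2 and FXYD6 60th for HAND1. With a prior count of 0.5 in the log2 CPM, FBXL21 was 2nd for PHOX2A, DENND1A 6th for TFAP2B, and FXYD6 and KIF21A 12th and 31st for HAND1.

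Most related genes of the same protein families that could be tested were higher in S2D4 and S2D30 than in untreated SK-N-AS. Of 12 paralogs, 9 could be tested. In S1D4 4 were higher and 1 lower, in S2D4 6 higher and 2 lower (GATA4 and TBX4), and in S2D30 7 higher and 1 lower (GATA4). Their median log2 change was 0.23 in S1D4, 2.38 in S2D4 (2.19 with GATA5 and TFAP2A, at the floor in untreated cells, set to their lower bounds) and 1.99 in S2D30. Over all genes 17.6%, 30.9% and 33.8% were called higher in these comparisons, and 22.4%, 32.2% and 36.5% lower.

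TBX3, the T-box gene closest to TBX2, went from 74.6 CPM in untreated SK-N-AS through 169.1 CPM in S1D4 to 387.2 CPM in S2D4 and 303.7 CPM in S2D30, while TBX2 went from 463.9 to 245.8, 266.8 and 137.1 CPM. Without S2D4 replicate 4 the S2D4 mean of TBX2 was 184 CPM, below that of S1D4. The log2 change of TBX3 was 1.15 in S1D4, 2.34 in S2D4 and 1.99 in S2D30 (edgeR adjusted p = 1.32e-06, 8.29e-11 and 1.8e-10), and from S2D4 to S2D30 it fell by 0.35 (edgeR adjusted p = 0.0145). In GIMEN D30 TBX3 was also higher, at 11.1 CPM against 4.89 (log2 change 1.16, edgeR adjusted p = 1.86e-05). Within the AP-2 family TFAP2C rose from 0.405 CPM to 1.84 in S1D4, 15.6 in S2D4 and 20.6 in S2D30 (log2 change 5.60 at S2D30, edgeR adjusted p = 3.11e-10), where TFAP2B was at 1.18 CPM. TFAP2A, at the floor in untreated SK-N-AS, reached 6.56 CPM in S2D30, at least 59.6-fold higher.

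Among GATA genes, GATA6 averaged 0.213 CPM in untreated SK-N-AS and 11.2 CPM in S2D30 (log2 change 5.57, edgeR adjusted p = 6.79e-08), and it fell in GIMEN D30 from 10.5 to 3.42 CPM (log2 change -1.65, edgeR adjusted p = 1.24e-06). GATA4 went from 101.7 CPM in untreated cells to 121.3 CPM in S1D4, then 46.1 CPM in S2D4 and 48.99 CPM in S2D30. Its log2 change was 0.23 in S1D4, -1.18 in S2D4 and -1.09 in S2D30 (edgeR adjusted p = 0.0181, 8.57e-10 and 9.46e-10), and it was at the floor in GIMEN.

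**Figure D4:**
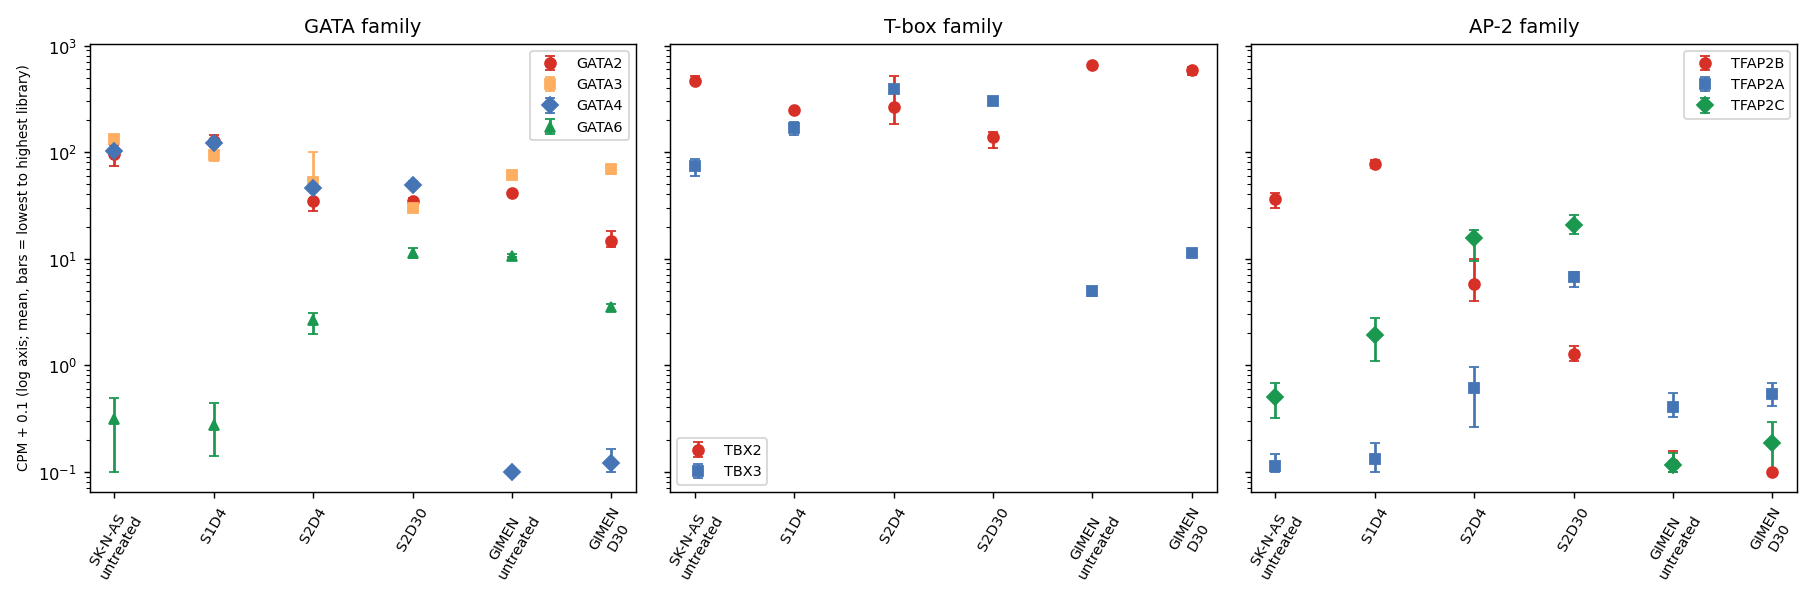
Mean CPM + 0.1 (vertical axis, logarithmic) of GATA, T-box and AP-2 genes in the 6 groups (horizontal axis), with bars from the lowest to the highest library. In S2D30, TBX3 and TFAP2C lie above their untreated SK-N-AS levels, at 303.7 and 20.6 CPM, and TBX2 and TFAP2B below theirs, at 137.1 and 1.18 CPM.

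Of 12 other adrenergic regulators, 0 rose and 3 fell in S1D4, 1 rose and 6 fell in S2D4, and 2 rose and 8 fell in S2D30. Median log2 changes were -0.32, -0.41 and -1.35. Of all genes, 17.6% were called higher and 22.4% lower in S1D4, 30.9% and 32.2% in S2D4, and 33.8% and 36.5% in S2D30, so the 3 lower calls in S1D4 are near the share over all genes. Without S2D4 replicate 4 the lower calls in S2D4 were 8. INSM1, a zinc finger factor of neuroendocrine cells, changed by -2.1 in S2D4 and by -5.25 in S2D30, whereas KLF13, a Krüppel-like factor, rose by 1.19 and 0.86. In GIMEN D30, 4 of 9 tested rose and 4 fell, among them SATB1 (1.38) and EYA1 (-1.38), against 35.5% and 36% of all genes.

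Genes of noradrenaline synthesis and storage were mixed in S1D4 and mostly lower by S2D30. The list also held the transporter SLC6A2 and the breakdown enzyme MAOA. In S1D4 5 of 12 rose and 2 fell, in S2D4 4 rose and 6 fell, and in S2D30 none rose and 9 fell, with medians of 0.34, -1.30 and -2.39. Without S2D4 replicate 4 the S2D4 counts were 4 higher and 7 lower, and the median was -2.36. The shares of all genes called higher were 17.6%, 30.9% and 33.8%, and lower 22.4%, 32.2% and 36.5%. The 4 higher calls in S2D4 are thus near the share over all genes. From S1D4 to S2D4, 3 rose and 8 fell, with a median of -1.52, against 28.3% and 26.8% of all genes. The 3 higher calls are near that share. Without S2D4 replicate 4, 2 rose and 9 fell at this step, with a median of -2.56. TH averaged 0.268 CPM in untreated SK-N-AS and 28.6 ± 12.6 CPM in S1D4 (SD, n = 4; log2 change 6.77, SE 1.12, edgeR adjusted p = 0.000168). In S2D4 TH averaged 6.92 CPM but had a median of 0.958 and 25.1 CPM in replicate 4, and in S2D30 it was 0.302 CPM (log2 change 0.20, adjusted p = 0.915). DBH went the other way in S1D4, from 76.6 to 14.7 CPM, and was 2.36 CPM in S2D30 (log2 changes -2.40 and -5.05, edgeR adjusted p = 0.00303 and 3.83e-06). DDC, the enzyme between them, was at the floor in S2D4, at least 63.6-fold lower than in untreated cells. In S2D30 DDC averaged 1.30 CPM, at least 9.64-fold higher than in S2D4 but still lower than in untreated cells (log2 change -2.76). CHGA, a granule protein, had a log2 change of -7.97 at S2D30, and the noradrenaline transporter SLC6A2 one of -7.79. In GIMEN only 3 of the 12 could be tested, of which CHGB (2.79) and SCG2 (2.04) rose and MAOA (-0.51) fell. The rise of SCG2 was not confined to GIMEN. Against untreated SK-N-AS its log2 change was 0.96 in S1D4, 2.52 in S2D4 and -1.79 in S2D30. MAOA was lower in SK-N-AS as well, by -1.64 in S1D4, -3.06 in S2D4 and -2.02 in S2D30. CHGB did not pass the test in S1D4 (-0.48) or S2D4 (0.22) and was lower in S2D30 (-1.74).

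Partner proteins and inhibitors of the 8 factors were mixed. Of 15 tested in SK-N-AS, 2 rose and 6 fell in S1D4, 5 rose and 7 fell in S2D4, and 3 rose and 7 fell in S2D30. Without S2D4 replicate 4 the S2D4 counts were 4 higher and 10 lower. The higher calls compare with 17.6%, 30.9% and 33.8% of all genes at the 3 stages, and the lower calls with 22.4%, 32.2% and 36.5%. The 2 higher calls in S1D4 and the 5 in S2D4 are near those shares, and the 3 in S2D30 are below theirs. TCF3 encodes E-proteins, which pair with HAND1 and HAND2, and was called lower than in untreated cells at each stage. It averaged 463.1 CPM in untreated cells, 319 CPM in S1D4, 300.0 CPM in S2D4 and 181.8 CPM in S2D30. TCF4 and TCF12, of the same family, were not called in S1D4 (log2 changes 0.12 and -0.25). In S2D4 TCF4 was not called (-0.37, edgeR adjusted p = 0.0715) and TCF12 was lower (-0.38). Both were lower in S2D30 (-2.10 and -0.85). ID proteins, which block the pairing with E-proteins, moved apart. In S1D4 the log2 changes were -2.21 for ID1, -1.26 for ID3 and 2.84 for ID4, and that of ID4 was 5.42 at S2D30. CITED2, a coactivator of AP-2 proteins, rose by 3.21 at S2D30 in SK-N-AS and by 1.32 in GIMEN D30. In GIMEN D30, 4 of 16 rose and 8 fell, against 35.5% and 36% of all genes.

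Most mesenchymal regulators tested were higher in treated than in untreated SK-N-AS, but not all of the rise lasted to day 30. Of 14 tested, 8 rose and 2 fell in S1D4, 10 rose and 1 fell in S2D4, and 11 rose and 3 fell in S2D30, with medians of 0.81, 2.77 and 2.13. From S2D4 to S2D30, however, 3 rose and 6 fell, with a median of -0.27, and PRRX1 fell by 1.34. RUNX1 rose by 4.02 in S2D4 and 4.37 in S2D30, and PRRX1 by 2.38 in S1D4, 2.96 in S2D4 and 1.62 in S2D30. TWIST1 had log2 changes of -0.90 in S1D4, -0.94 in S2D4 and -0.38 in S2D30, and TBX18 had one of -1.23 in S2D30. In GIMEN D30 the same list had 2 higher and 10 lower of 14, with a median of -0.63, including SNAI2 (-3.06), FOSL1 (-1.86) and PRRX1 (-0.70). Without S2D4 replicate 4, 11 mesenchymal regulators were higher in S2D4. Of all genes, 17.6% were called higher and 22.4% lower in S1D4, 30.9% and 32.2% in S2D4, 33.8% and 36.5% in S2D30, 24.4% and 26.9% from S2D4 to S2D30, and 35.5% and 36% in GIMEN D30.

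**Figure D5:**
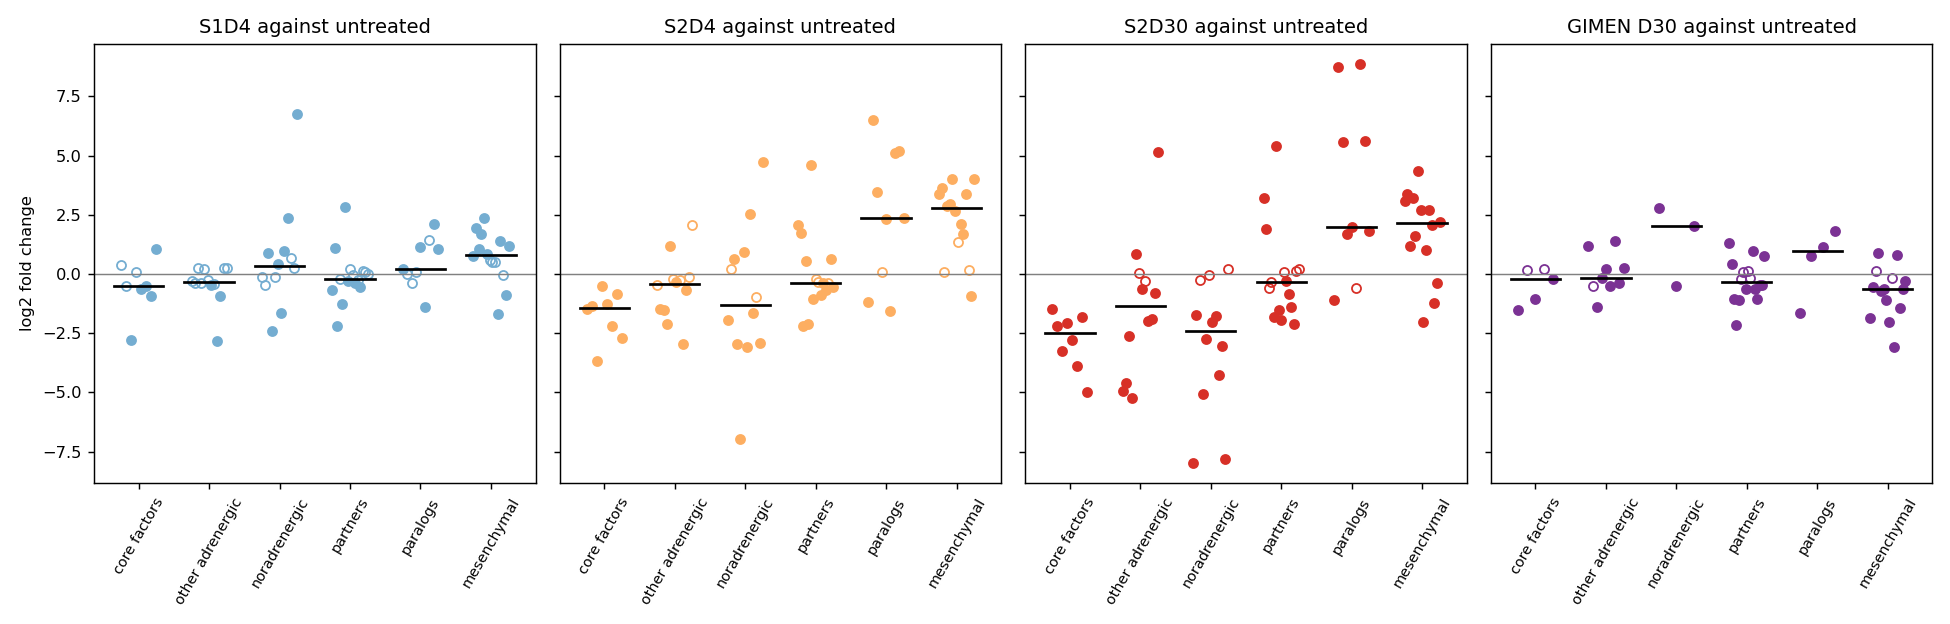
Log2 fold change against untreated cells of the same line (vertical axis) for the core factors and 5 gene lists (horizontal axis) in S1D4, S2D4, S2D30 and GIMEN D30. Each point is a gene (filled where called, open where not), and lines mark medians, which for the core factors were -0.51, -1.42, -2.48 and -0.19, and for mesenchymal regulators 0.81, 2.77, 2.13 and -0.63.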

How the data were processed

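The deposited table holds counts per gene symbol in 1 column per sample; that the authors' values are raw counts was checked on the values, whole numbers summing to 16456484 to 37506800 per library. RNA was treated with DNase and a company made the libraries for paired-end sequencing, per the labels' protocols. Aligner, counting tool, strand setting, genome build and annotation are not given in the sources used here. Groups came from the labels. The 8 genes and all gene lists were chosen with earlier results of these data known.

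The deposited counts went into edgeR 4.0.16 (R 4.3.3): filterByExpr (minimum count 10, total 15), TMM scaling, quasi-likelihood F-tests, and p-values adjusted by Benjamini-Hochberg across every gene tested (threshold 0.05). One model held the 16 SK-N-AS libraries (15810 genes), another the 6 GIMEN libraries (13517 genes), and another the 14 untreated and 30-day libraries (16246 genes), which gave the comparison of lines. The script was tested on simulated data. Where every library of a group had at most 3 counts, a gene was at the floor, and its fold is a bound at 3 counts per library, for counting error only. CPM are TMM-scaled over 22 libraries, and correlations are of log2 CPM (prior count 2).

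Named genes were the 8 members, for each member the 2 genes with the highest correlation, and TH, DBH and PRRX1. From each list the rule picked up to 2 called genes with the largest rise and 2 with the largest fall, among genes with at least 5 CPM. Not every gene it picked is given at each stage, so the genes named are not always the extremes of a list. Left out were, for example, SOX11 in S1D4, EYA1 and TWIST2 in S2D4 and KCTD15 in S2D30. A listed adrenergic regulator that this rule picks is not reported here by name. PTPRC, LCP1, CD3E, MS4A1, TBX4, SOX10, GATA5 and TFAP2A were given after their values were seen. So were further levels or comparisons of listed genes, such as GATA6, DDC at the floor, TCF3, TCF12 and CHGB in SK-N-AS. Alternatives were DESeq2 size factors, upper-quartile scaling, DESeq2 1.42.0, no filter on low counts, a filter on means under 10 counts, a replicate block, models of the compared groups or of all 22 libraries, a prior count of 0.5 for correlations, and leaving out each library. Promoter windows and exon overlaps came from RefSeq (GRCh38.p14) and GENCODE 29.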

Additional observations from a re-analysis of the deposited data

Results flagged for a closer look

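In S2D4, replicate 4 lay apart from the other 3 libraries, by Dixon's criterion for a single extreme value, in 4 genes: GATA2 at 52.1 CPM, GATA3 at 100 CPM, TBX2 at 516 CPM and TFAP2B at 9.92 CPM. Of 32 groups of values checked (8 genes in the 4 SK-N-AS groups), these were the only 4 past the criterion. Chance alone marks about 1 in 20 groups, and the 4 values come from 1 library, so they are not independent. Its place relative to S1D4 differed by gene, with TBX2 above, GATA3 inside, and GATA2 and TFAP2B below the S1D4 range.

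The 30-day change differed between the lines, by the interaction test of edgeR, in HAND2 (-1.02, SK-N-AS minus GIMEN on the log2 scale), GATA3 (-2.36), ISL1 (-3) and TBX2 (-1.62). ISL1 was at 1.23 CPM in untreated GIMEN and 44.7 CPM in untreated SK-N-AS. Doses and media differed with the line.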

How the results depend on the processing

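Over 58 single-gene results and 890 alternatives, 847 kept direction and side of the threshold, 20 lost a call, 8 gained one and 15 changed sign. Counts of called genes kept within 1.5 times: 4 to 7 for S1D4, 8 for S2D4 and for S2D30, 6 to 8 for S2D4 against S1D4, 5 to 7 for S2D30 against S2D4, 2 to 3 for GIMEN D30, 7 to 8 between untreated lines and 4 for the difference between lines. Only results near 0 changed sign. TBX2 in S2D4 against S1D4 was -0.0146 with upper-quartile scaling and ranged from -0.428 to 0.255 with 1 library left out. GATA2 in S2D30 against S2D4 was -0.00992 without a filter and ranged from -0.0929 to 0.266. The GATA2 difference between lines was -0.0341 with upper-quartile scaling and ranged from -0.0858 to 0.205. ISL1 in GIMEN D30 ranged from -0.0924 to 0.710. With only the compared groups in the model, GATA3 lost its call in S2D4 against S1D4 (adjusted p = 0.0523) and in S2D30 against S2D4 (0.0537), and GATA2 and GATA3 gained one in S1D4 (0.0439 and 0.00361). The cause was not tested.

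The labels do not say that replicate numbers pair libraries. The r of same-numbered libraries exceeded 0.1 in 4 of 27 pairs, and 11 of 27 libraries matched their own number best. Of the 4, 3 were untreated against S1D4 (0.26, 0.276 and 0.293, each best with its own number, but 0.0317 for replicate 3), the comparison in which the block moved calls. With a replicate block PHOX2A in S1D4 was -0.51 (adjusted p = 0.0611) and lost its call, GATA2 in S1D4 was 0.41 (adjusted p = 0.0451) and gained one, and no other call changed. Depth limits PHOX2A, HAND1 and TFAP2B in GIMEN and ISL1 at about 1 CPM there.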
